A study of Rattus norvegicus with 16 samples.

Results

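The 35 genes described here encode the enzymes and carriers of fatty acid oxidation, the nuclear receptor PPAR-alpha and genes that PPAR-alpha is known to switch on. They were chosen by symbol, and each was represented by the single row of the array that carries its symbol, so that all 35 were measured among 36685 TranscriptClusterIDs, the array's gene-level probe sets. For Cd36, that row also carries an older symbol that RefSeq lists as a synonym of Cd36. By the place where their proteins work, 18 members were counted as mitochondrial, 5 as peroxisomal and 3 as both, and 9 members belong to neither list.

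The tissue was a superficial slice of renal cortex from 16 male Sprague Dawley rats, an outbred stock, 7 weeks of age by the labels, and each rat gave 1 Affymetrix array. CNS rats (rats 1 to 4) drank water and ate standard chow, and FNS rats (rats 5 to 8) drank 20% fructose with the same chow. CHS rats (rats 9 to 12) drank water and ate a chow with 4% NaCl, and FHS rats (rats 13 to 16) received both the fructose and the 4% NaCl chow, all for 7 days. The base chows differed in maker and in protein, carbohydrate and energy, and slightly in fat, as well as in salt. A difference between them therefore cannot be told apart from a difference in salt. The rats were housed in pairs, and the labels do not give the cages, so each rat was treated as independent.

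Fatty acids enter the cell through carriers such as CD36, are joined to coenzyme A and are carried into mitochondria by the carnitine shuttle, where a repeated cycle of dehydrogenation, hydration, dehydrogenation and thiolysis shortens them. Peroxisomes shorten very long and branched chains first and pass the products on. PPAR-alpha, bound to DNA as a partner of RXR, is activated by fatty acids and raises transcription of genes of both organelles in liver and kidney. The proximal tubule, which fills most of the cortex, depends on fatty acid oxidation for the energy of transport.

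The values are log2 RMA values (a background-corrected and normalised summary of the probes of a gene), and a difference of 1 is a change of 2-fold. Array medians lay between 5.25 and 5.34 outside the FHS group and between 5.33 and 5.44 within it. Rat 14 of the FHS group had the highest array median, and its mean over the mitochondrial members was below those of the other FHS rats. The 7 measured proximal tubule markers (S1 and S2) were bright in every rat, and their summed linear level ranged from 36315 to 37288 in CNS, from 37282 to 40615 in FNS, from 36545 to 41291 in CHS and from 30100 in rat 14 to 42492 in FHS. The summed level of the 5 measured S3 markers ranged from 3029 to 13162 among the CNS rats alone. The 7 adipocyte markers were dim, with mean log2 values of 4.77 to 5.19 per rat. In a bulk slice, fewer cells of a type and less RNA per cell cannot be told apart.

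The members differed in how steady they were among rats of a group. The pooled within-group SD was smallest for Crat (carnitine acetyltransferase) at 0.075, Slc25a20 (the carnitine-acylcarnitine translocase) at 0.082 and Etfdh (which hands electrons from the flavoprotein ETF to the respiratory chain) at 0.091. It was largest for Vnn1 (a pantetheinase) at 0.47, Cd36 at 0.46, Acsm3 (a medium-chain acyl-CoA synthetase) at 0.45 and Pdk4 (the kinase that inhibits pyruvate dehydrogenase) at 0.41. The rows of Cd36 and of Fabp1 (liver fatty acid binding protein) were dim, with means over all 16 rats of 3.42 and 2.997, below the median of every array. Angptl4, a secreted inhibitor of lipoprotein lipase, had a mean of 5.12, also below every array median.

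The question of the study was what fructose does to the cortex on each base chow. On standard chow, no member passed the test of FNS against CNS (0 of 35, with 0% of all TranscriptClusterIDs called at an adjusted p under 0.05 in limma's fit of the 4 groups). At an unadjusted p under 0.05, 3 members were found (Ppara, Acot2 and Cd36), or 8.57% of the members beside 4.15% of all TranscriptClusterIDs. Acot2, a mitochondrial thioesterase that frees fatty acids from coenzyme A, was the only member whose 4 FNS values all lay above the 4 CNS values, beside 1.5% of all TranscriptClusterIDs, and no member lay wholly below, beside 1.62%. Of the 35 differences, 27 were above 0, with a median of 0.11, beside 49.7% above 0 and a median of -0.001 over all TranscriptClusterIDs. The largest positive difference was 0.60, for Acsm3, with means of 10.88 (SD 0.57) in CNS and 11.47 (SD 0.33) in FNS. Its unadjusted p was not under 0.05. In the same comparison the 7 measured S1 and S2 markers were all above 0 (median 0.11), and the 8 macrophage, 6 fibroblast and smooth muscle, 3 endothelial and 3 podocyte markers were all below 0 (medians -0.17, -0.27, -0.13 and -0.04), with no marker called. The part of cell composition in the members' values was not tested.

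The CNS values of Acot2 were 8.88, 8.48, 8.91 and 8.94, and the FNS values were 9.19, 9.15, 9.44 and 9.05. The difference was 0.40 ± 0.13 (SE; 95% interval 0.12 to 0.68). Rat 2 lay apart from the other CNS rats. Acot2 neighbours its paralog Acot1 in the genome, and probes may be shared between them. For Ppara, the CNS values were 9.25, 8.68, 8.74 and 9.30 and the FNS values were 9.20, 9.75, 9.31 and 9.36, which overlap, with a difference of 0.41 ± 0.18 (SE). Cd36 values were 3.22, 5.03, 3.42 and 3.34 in CNS and 2.89, 3.13, 3.17 and 3.29 in FNS. The Cd36 difference of -0.64 ± 0.30 was -0.21 without rat 2, whose value stood apart, and all of these values are dim. Without that rat the Acot2 and Ppara differences were 0.30 and 0.31.

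On the 4% NaCl chow, again no member passed the test of FHS against CHS (0 of 35, beside 0.00273% of all TranscriptClusterIDs). Hacl1, the lyase that cleaves hydroxyacyl-CoA in peroxisomal alpha-oxidation of branched chains, had the largest difference, 0.75 ± 0.13 (SE; 95% interval 0.48 to 1.03), which is 1.68-fold, with an adjusted p = 0.0947 by limma. Its values were 8.95, 8.86, 9.17 and 8.78 in CHS and 9.45, 9.93, 9.80 and 9.58 in FHS. All 4 FHS rats lay above all 4 CHS rats, and above every CNS and FNS rat as well (8.83, 9.05, 8.98 and 8.82 in CNS; 8.97, 9.11, 9.29 and 8.81 in FNS). When the test was limited to TranscriptClusterIDs brighter than the median, which adjusts over fewer rows, Hacl1 passed with an adjusted p = 0.0378, while over the other alternatives its adjusted p ranged from 0.0643 to 0.363.

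Pex11a, a membrane protein that drives the division of peroxisomes, had CHS values of 8.83, 8.52, 8.88 and 8.91 and FHS values of 9.06, 9.11, 9.44 and 8.91. These groups did not overlap, by a small margin, and differed by 0.35 ± 0.13 (SE). Eci1, the mitochondrial isomerase that lets unsaturated acyl chains into the cycle, had values of 8.81, 8.59, 8.73 and 8.41 in CHS and 9.19, 8.76, 9.51 and 8.85 in FHS, a difference of 0.44 ± 0.17 with overlap. Crat was the other member with separate groups, its difference being 0.13 ± 0.08. In all, 3 members lay wholly higher (8.57%, beside 2.99% of all TranscriptClusterIDs) and none wholly lower (beside 2.13%), and 3 had an unadjusted p under 0.05 (8.57%, beside 9.62%). Counted this second way, the members were no more frequent than the rest of the array. Of the 35 differences on this chow, 22 were above 0, with a median of 0.10. Over all TranscriptClusterIDs, 56.4% were above 0, with a median of 0.03.

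Averaged over both chows, fructose again gave 0 calls among the members, beside 0.00273% of all TranscriptClusterIDs. An unadjusted p under 0.05 was reached by 6 members (17.1%, beside 7.44%), all with positive differences. Hacl1 (0.44 ± 0.09), Pex11a (0.29 ± 0.09) and Ehhadh (0.24 ± 0.11), which catalyses hydration and dehydrogenation in peroxisomes, are peroxisomal. Acot2 (0.28 ± 0.09) and Eci1 (0.28 ± 0.12) are mitochondrial, and Vnn1, a known PPAR-alpha target, differed by 0.55 ± 0.21. The smallest adjusted p of these was 0.195, for Hacl1.

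Whether the fructose difference itself differed between the chows was tested as an interaction, and no member passed (0 of 35, beside 0% of all TranscriptClusterIDs). An unadjusted p under 0.05 was found for 2 members (5.71%, beside 6.09%). For Hacl1, the fructose difference was larger by 0.63 ± 0.18 on the 4% NaCl chow (adjusted p = 0.768). For Acot1, the cytosolic thioesterase next to Acot2, it was smaller by 0.61 on the log2 scale, as the interaction of -0.61 ± 0.27 shows (adjusted p = 0.812). Acot1 values were 8.38, 8.44, 8.20 and 8.02 in CNS, 8.66, 8.25, 9.02 and 8.38 in FNS, 8.83, 8.80, 9.14 and 8.49 in CHS and 8.61, 8.06, 8.55 and 8.86 in FHS. The fluid groups overlapped on both chows. Hadhb, the thiolase subunit of the mitochondrial trifunctional protein, was next, with an interaction of -0.29 ± 0.18. Its values were 10.30, 10.28, 10.52 and 10.45 in CNS, 10.50, 10.56, 10.64 and 10.49 in FNS, 10.61, 10.59, 10.79 and 10.53 in CHS and 10.45, 10.10, 10.69 and 10.74 in FHS. Rat 14 held its lowest value, and without that rat the interactions of Hacl1, Acot1 and Hadhb were 0.55, -0.46 and -0.16.

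**Figure D1:**
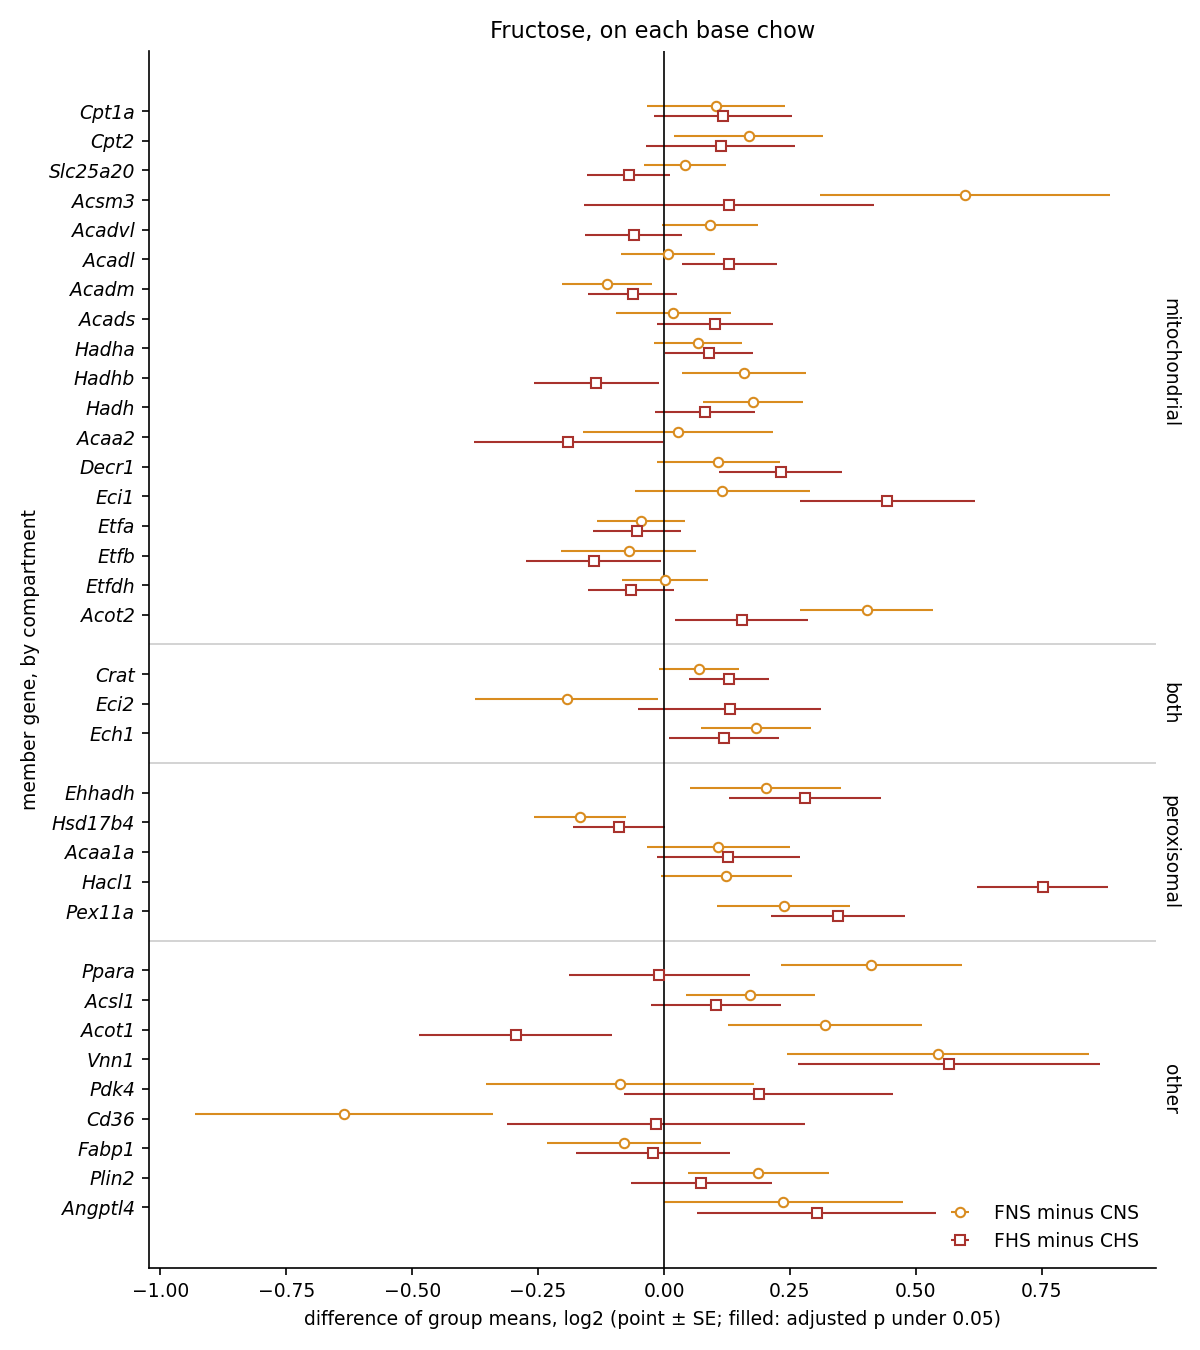
Difference of group means (x axis, log2, points with SE as bars) for each of the 35 members (y axis, grouped by compartment), FNS minus CNS as circles and FHS minus CHS as squares. No point is filled, since no member passed an adjusted p of 0.05, and Hacl1 on the 4% NaCl chow lies farthest to the right at 0.75.

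Members passed the test in the comparisons of the base chow. Averaged over both fluids, 7 of 35 members rose on the 4% NaCl chow and none fell (20%, beside 6.49% of all TranscriptClusterIDs called higher and 6.77% called lower). Of the 4863 TranscriptClusterIDs called, 49% were higher, and 33.2% were higher once each array was centred on its median. The 7 were Ppara itself, the peroxisomal genes Acaa1a, Hacl1 and Pex11a, the mitochondrial genes Acadvl and Eci1, and Ech1, a dienoyl-CoA isomerase found in both organelles. Their differences were modest, between 0.32 and 0.50 on the log2 scale. With each array centred on its median 5 members rose, Eci1 and Hacl1 being lost, beside 1597 of all TranscriptClusterIDs called higher (2381 in the main fit). After quantile normalisation 8 rose, Cpt1a being added, beside 2428 called higher. Without dim rows the same 8 rose, beside 1923 called higher among the brighter rows alone.

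Acaa1a, the peroxisomal thiolase that performs the last step of the cycle, rose by 0.50 ± 0.10 (SE), or 1.42-fold, with an adjusted p = 0.00428 by limma. Its values were 7.73, 8.26, 7.97 and 7.65 in CNS and 8.51, 8.35, 8.48 and 8.24 in CHS, and 7.75, 7.92, 8.31 and 8.07 in FNS and 8.72, 8.39, 8.49 and 8.48 in FHS. The fructose-fed rats separated fully by chow, while rat 2 in CNS reached the range of CHS. A near-identical gene, Acaa1b, lies in the rat genome, and its own row rose by 0.61 ± 0.14 (adjusted p = 0.0109), so signal may be shared between the pair.

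Pex11a rose by 0.36 ± 0.09 (adjusted p = 0.0184). Its values were 8.35, 8.54, 8.36 and 8.66 in CNS and 8.58, 8.91, 8.54 and 8.82 in FNS, beside the CHS and FHS values given above. The FHS rats lay above the FNS rats, whereas CHS and CNS overlapped through rat 10. Hacl1 rose by 0.33 ± 0.09 over both fluids (adjusted p = 0.0250). The difference was 0.65 ± 0.13 in rats on fructose (adjusted p = 0.0109) and 0.02 ± 0.13 in rats on water, and the test of the gap between these is the interaction given above, which did not pass. The remaining peroxisomal members did not pass. Ehhadh differed by 0.24 ± 0.11, with values of 9.99, 10.03, 10.23 and 9.70 in CNS, 10.02, 10.19, 10.41 and 10.13 in FNS, 9.996, 10.17, 10.41 and 10.16 in CHS and 10.51, 10.15, 10.85 and 10.33 in FHS. Hsd17b4, the other bifunctional enzyme of the peroxisome, differed by 0.01 ± 0.06 (95% interval -0.12 to 0.15), with values of 11.48, 11.23, 11.23 and 11.48 in CNS, 11.28, 11.31, 11.14 and 11.02 in FNS, 11.30, 11.36, 11.32 and 11.34 in CHS and 11.28, 11.15, 11.31 and 11.22 in FHS. Of the 5 peroxisomal members, 3 thus rose and 2 gave no call.

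Acadvl, the dehydrogenase that opens the mitochondrial cycle on very long chains, rose by 0.32 ± 0.07 (adjusted p = 0.00578). Its values were 9.59, 9.91, 9.68 and 9.52 in CNS, 9.76, 9.68, 9.92 and 9.70 in FNS, 10.12, 10.10, 10.04 and 10.04 in CHS and 10.10, 9.88, 10.09 and 9.998 in FHS. Every CHS value lay above every CNS and FNS value. The dehydrogenases for shorter chains did not pass: Acadl differed by -0.05 ± 0.07, Acadm by 0.05 ± 0.06 and Acads by 0.18 ± 0.08. Eci1 rose by 0.41 ± 0.12 (adjusted p = 0.0388), its values being 8.27, 8.85, 8.40 and 8.05 in CNS and 8.37, 8.58, 8.55 and 8.52 in FNS, and all FHS rats lay above all FNS rats. This call was lost in 12 of the 16 fits that each left out 1 rat. Ech1 rose by 0.33 ± 0.08 (adjusted p = 0.0109). Its values were 9.50, 9.84, 9.38 and 9.37 in CNS, 9.68, 9.67, 9.85 and 9.62 in FNS, 9.88, 9.93, 9.89 and 9.84 in CHS and 10.14, 10.02, 9.81 and 10.06 in FHS. Rat 2 again was the CNS rat nearest to the other chow.

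Ppara rose by 0.47 ± 0.13 (adjusted p = 0.0237), or 1.38-fold. Its CHS values were 9.67, 9.59, 9.55 and 9.88, all above the CNS values, and its FHS values were 9.89, 9.19, 9.78 and 9.80, where rat 14 overlaps the FNS rats. Without rat 14 the averaged difference was 0.55 (adjusted p = 0.00657). The difference was 0.68 ± 0.18 on water (adjusted p = 0.0521) and 0.26 ± 0.18 on fructose (adjusted p = 0.446), and the interaction of -0.42 ± 0.25 did not pass (adjusted p = 0.841). Of the carnitine shuttle, Cpt1a, which makes the acylcarnitine and sets the rate of entry, differed by 0.27 ± 0.10 and did not pass (adjusted p = 0.0747), and Cpt2 and Slc25a20 differed by 0.09 ± 0.10 and 0.04 ± 0.06. The members that bring lipid in or store it did not pass either, with differences of -0.03 ± 0.21 for Cd36, 0.02 ± 0.11 for Fabp1 and -0.15 ± 0.10 for Plin2, a coat protein of lipid droplets. Pdk4 and Angptl4, both well-known PPAR-alpha targets, differed by 0.05 ± 0.19 and 0.04 ± 0.17. Of the mitochondrial members not yet named for the chow, the difference lay between -0.17 (Acsm3) and 0.19 (Acot2), with Hadha (the other trifunctional subunit) at 0.04, Hadh (the dehydrogenase for shorter hydroxyacyl chains) at -0.08, Acaa2 (a mitochondrial thiolase) at 0.06, Decr1 (a dienoyl-CoA reductase) at 0.07 and the electron transfer flavoprotein subunits Etfa and Etfb at 0.08 and 0.11. Acsl1, a long-chain acyl-CoA synthetase, differed by -0.03. The largest negative difference among the members was -0.31 ± 0.13, for Eci2, an isomerase of both organelles.

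**Figure D2:**
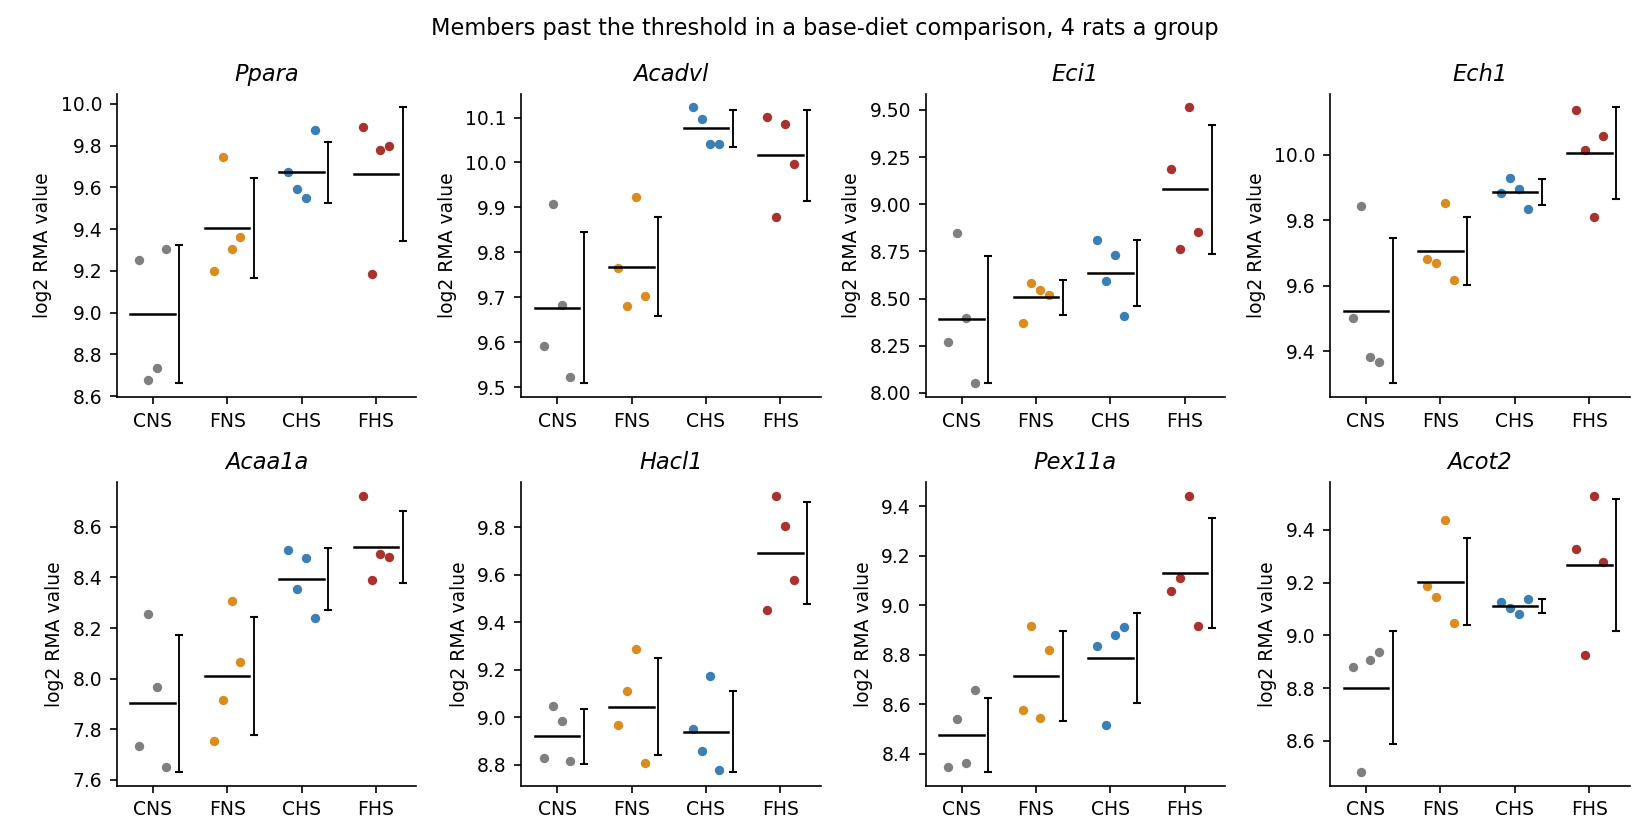
Log2 RMA values (y axis) of the 8 members that passed the test in any comparison involving the chow, 1 panel a gene, with each rat as a point, the group mean as a line and the SD as a bar, 4 rats in each of CNS, FNS, CHS and FHS (x axis). The Hacl1 values are highest in the 4 FHS rats, Acadvl and Ppara are as high in CHS as in FHS, and rat 14 is the low FHS point of Ppara.

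Within each fluid the calls were fewer. In rats on water, 1 member rose, Acadvl by 0.40 ± 0.10 (adjusted p = 0.0346), and none fell (2.86%, beside 1.32% of all TranscriptClusterIDs called higher and 1.97% called lower). Here 5 members had all CHS rats above all CNS rats (14.3%, beside 5.48%): Ppara, Acadvl, Hadhb, Acot1 and Acot2. In rats on fructose, 2 members rose, Acaa1a by 0.51 ± 0.14 (adjusted p = 0.0482) and Hacl1 (5.71%, beside 2.73% called higher and 2.63% called lower). With each array centred on its median, the split of the 1968 TranscriptClusterIDs called in this comparison moved from 50.9% higher to 29.5% higher of 2168. Here 4 members separated fully, Eci1, Acaa1a, Hacl1 and Pex11a (11.4%, beside 7.16%). No member lay wholly below on either fluid, beside 6.19% and 6.12% of all TranscriptClusterIDs. With each of the 16 rats left out in turn, Hacl1 passed every time, Acadvl on water 9 times (not without rats 1, 3, 4 or any CHS rat) and Acaa1a on fructose 3 times (with rats 2, 4 or 7 left out). Acot1 and Hadhb separated on water without passing (0.56 ± 0.19 with an adjusted p = 0.131, and 0.24 ± 0.12 with an adjusted p = 0.323).

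**Figure D3:**
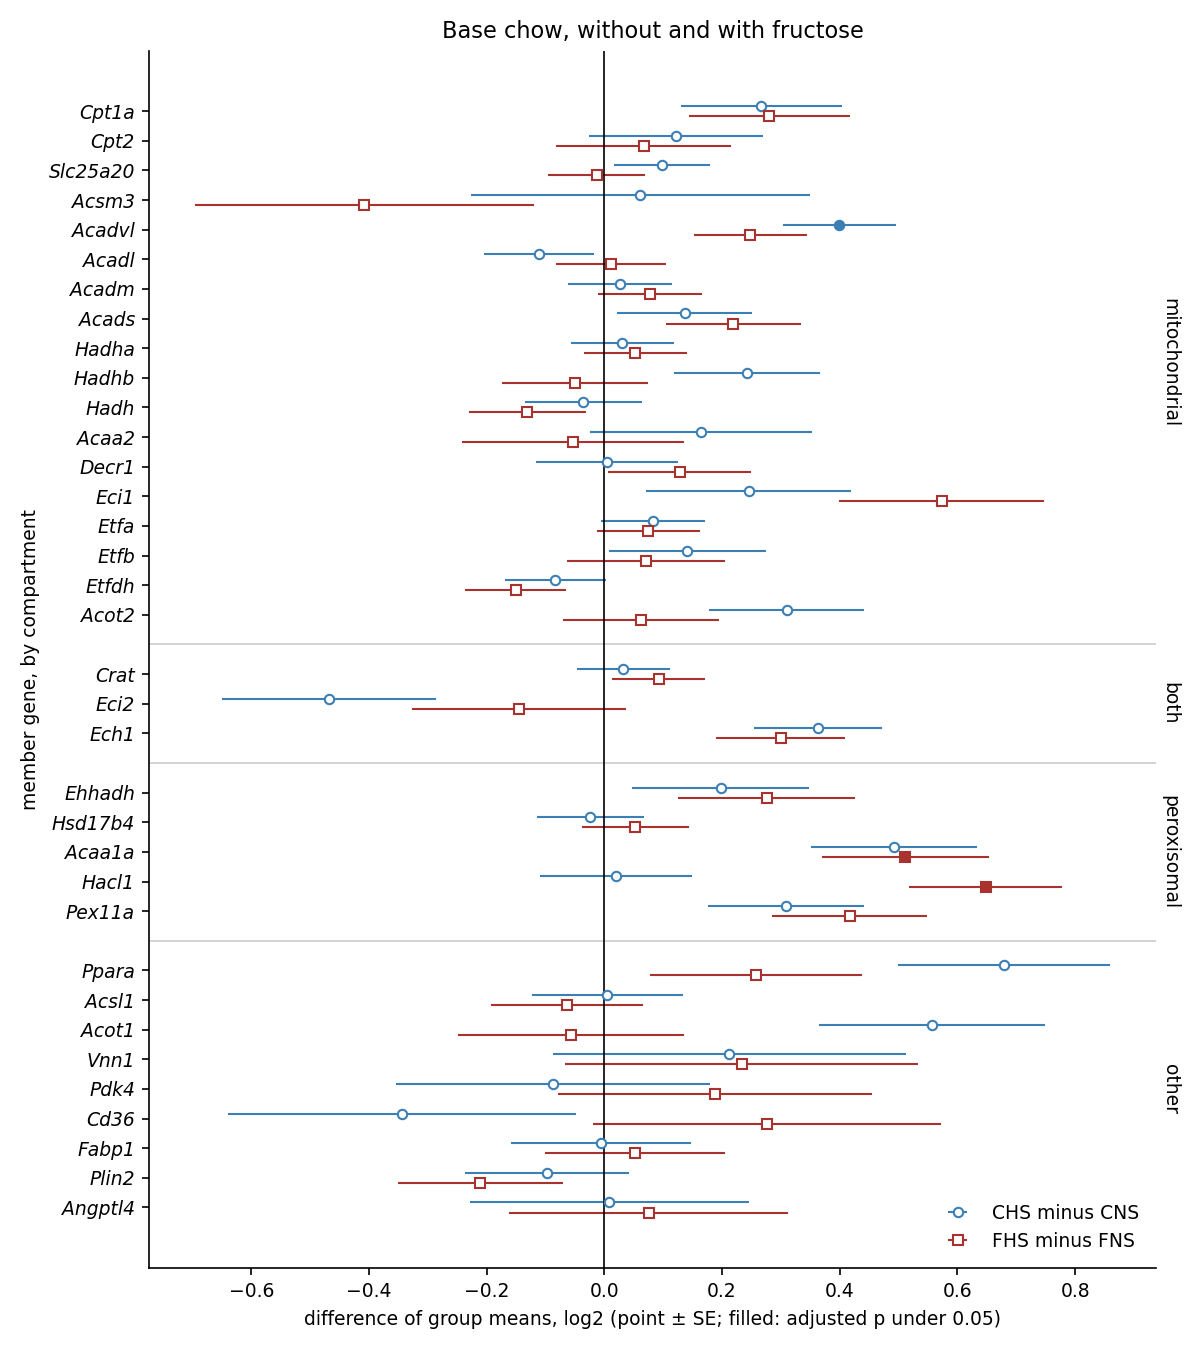
Difference of group means (x axis, log2, points with SE as bars) for each of the 35 members (y axis, grouped by compartment), CHS minus CNS as circles and FHS minus FNS as squares, filled where the adjusted p is under 0.05. Acadvl is filled on water and Acaa1a and Hacl1 on fructose, and Hacl1 lies at 0.02 on water and at 0.65 on fructose.

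Rats given both changes were set against the control rats last. Of FHS against CNS, 8 members rose and none fell (22.9%, beside 4.31% of all TranscriptClusterIDs called higher and 4.09% called lower). Of the 3080 called, 51.3% were higher, and 26.8% of 3562 were once each array was centred on its median. Hacl1 rose by 0.77 ± 0.13 (adjusted p = 0.00297), or 1.71-fold, Eci1 by 0.69 ± 0.17 (adjusted p = 0.0251), Ppara by 0.67 ± 0.18 (adjusted p = 0.0327), Pex11a by 0.65 ± 0.13 (adjusted p = 0.00828) and Acaa1a by 0.62 ± 0.14 (adjusted p = 0.0154). Ech1, Acot2 and Acadvl rose by 0.48, 0.46 and 0.34. The FHS values of Acot2 were 9.33, 8.93, 9.53 and 9.28, and its CHS values were 9.13, 9.10, 9.08 and 9.14. Ehhadh differed by 0.48 ± 0.15 and missed the threshold (adjusted p = 0.0619), and Vnn1 had the largest difference of all members, 0.78 ± 0.30, with a wide spread (adjusted p = 0.125). With each rat left out in turn, Hacl1 and Pex11a passed 16 times, Ech1 15 (not without rat 3), Acaa1a 14 (not without rats 1 or 13), Ppara and Eci1 11, Acadvl 6 and Acot2 3 times. Without rat 14, 11 members rose, Cpt2, Ehhadh and Vnn1 being added, beside 1121 of all TranscriptClusterIDs called higher (1580 in the main fit). With each array centred on its median, 4 members rose, namely Ech1, Acaa1a, Hacl1 and Pex11a, beside 954 of all TranscriptClusterIDs called higher.

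The mitochondrial and the peroxisomal members were then set side by side, as counts and medians with no test. With the chow averaged over both fluids, 2 of 18 mitochondrial members rose (median difference of all 18, 0.07) and 3 of 5 peroxisomal members rose (median 0.33), where 6.49% of all TranscriptClusterIDs were called higher and their median was 0.02. With both changes, 3 of 18 and 3 of 5 rose, with medians of 0.11 and 0.62, beside 4.31% and a median of 0.03. For fructose the medians were 0.08 and 0.12 on standard chow and 0.09 and 0.28 on the 4% NaCl chow, with no calls in either compartment. Without rat 15 the medians on the 4% NaCl chow were -0.012 and 0.15. Of the members in both organelles, Ech1 rose and Crat and Eci2 did not, and with these 3 counted as peroxisomal the peroxisomal median for fructose on the 4% NaCl chow was 0.13.

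Rat by rat, each member was centred on its CNS mean and averaged over a compartment. The mitochondrial mean was 0.10 ± 0.03 (SD, n = 4) in FNS, 0.12 ± 0.05 in CHS and 0.16 ± 0.18 in FHS, where the CNS rats had an SD of 0.03. The peroxisomal mean was 0.10 ± 0.10 in FNS, 0.20 ± 0.09 in CHS and 0.48 ± 0.12 in FHS, where the CNS rats had an SD of 0.07. The FHS rats, at 0.48, 0.42, 0.65 and 0.38, all lay above the highest rat of another group, a CHS rat at 0.32. Their mitochondrial means of 0.25, -0.09, 0.34 and 0.15 overlapped those of FNS and CHS. The gap between compartments, peroxisomal minus mitochondrial, was -0.002 ± 0.085 in FNS, 0.08 ± 0.07 in CHS and 0.32 ± 0.13 in FHS, and 0.26 ± 0.05 in FHS without rat 14. Of the 5 peroxisomal members, Hsd17b4 did not share it, at -0.11 ± 0.09 in FHS against CNS. Rat 14 combined a peroxisomal mean within the range of its group with the lowest mitochondrial mean of all 16 rats and the lowest sum of S1 and S2 markers. Its part in the FHS mean was not tested beyond leaving it out.

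**Figure D4:**
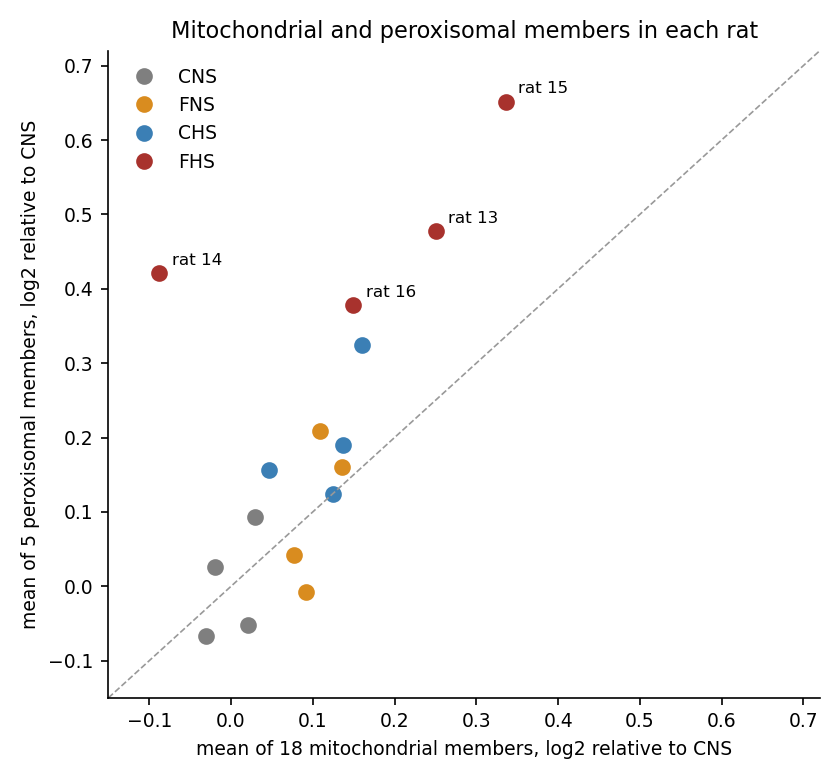
Mean of the 5 peroxisomal members (y axis) against the mean of the 18 mitochondrial members (x axis) in each of the 16 rats, both in log2 relative to the CNS group mean, with the dashed line where both are equal. The 4 FHS rats lie above the line, with gaps of 0.23 to 0.51, and rat 14 is the FHS rat with a mitochondrial mean of -0.09.

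Of the cell type markers, none passed in the fructose comparison averaged over both chows, beside 0.00273% of all TranscriptClusterIDs. For the chow, 0 of the 7 measured S1 and S2 markers passed, where 6.49% of all TranscriptClusterIDs were called higher and 6.77% lower in the averaged comparison. A count of 0 among 7 is near these shares and does not show that the tubule was steady. Markers of other cells did move with the chow, in both directions. Lower were Wt1 of podocytes (3 measured), Cdh5 of endothelium (3), Myh11 of smooth muscle (6 with fibroblasts), Cx3cr1 of macrophages (8), Slc5a1 of the S3 segment (5) and Atp6v1b1 of the collecting duct (5). Higher were Aqp2 and Scnn1g, also of the collecting duct, Col3a1 of fibroblasts and C1qa of macrophages. The summed linear level of the 3 measured endothelial markers was 2303 to 2712 in CNS, 2028 to 2335 in FNS, 1769 to 2073 in CHS and 1810 to 2125 in FHS. The part of cell composition in the rise of the members was not tested.

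PPAR-alpha and RXR bind a direct repeat of the letters AGGTCA with 1 base between, called DR1. The 300-base promoter windows of RefSeq (build GRCr8, 250 bases before to 50 after the start of transcription) were searched on both strands for DR1 with up to 2 mismatches in its 12 fixed bases, with no other motif counted. Of the members, 30 had a window, and 5 of them held a match (16.7%), beside 3.77% of all 33469 windows. The match came within 1 mismatch in 2 members, Acadvl and Fabp1 (6.67%, beside 0.439%), and with 3 mismatches allowed in 10 (33.3%, beside 24.9%). None of the 5 peroxisomal members held one with up to 2 mismatches. Hadha and Hadhb, both among the 10 members, have overlapping windows, so the same stretch may be counted for both. Some members were listed as known PPAR-alpha targets, so these shares are not independent of how the members were chosen. The matches are shown with 15 bases on each side, 5′ to 3′ on the strand of the gene, with the 13 bases of DR1 in capitals, and of these 5 genes Acadvl alone passed a test.
Acadvl: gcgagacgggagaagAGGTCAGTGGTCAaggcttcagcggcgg
Fabp1: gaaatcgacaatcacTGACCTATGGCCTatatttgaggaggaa
Slc25a20: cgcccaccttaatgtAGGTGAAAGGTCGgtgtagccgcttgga
Crat: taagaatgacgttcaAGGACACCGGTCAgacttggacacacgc
Etfa: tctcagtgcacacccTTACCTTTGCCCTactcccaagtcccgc
Counted from the start of transcription, the match began at base -17 in Acadvl, -77 in Fabp1, -223 in Crat, -154 in Etfa and 15 in Slc25a20. In Fabp1 and Etfa it reads on the strand opposite to the gene. A match is a description of letters and not a measured binding site, and a window without one says nothing of sites elsewhere.

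The whole windows of Acadvl and of Hacl1 and Pex11a are given to show a mitochondrial member with DR1 beside the peroxisomal members that led the FHS rats and have none with up to 3 mismatches. They lie on the minus strand at chr10:55236656-55236955 (Acadvl), chr16:6869361-6869660 (Hacl1) and chr1:143096442-143096741 (Pex11a) of GRCr8, and the capitals again mark DR1.
Acadvl: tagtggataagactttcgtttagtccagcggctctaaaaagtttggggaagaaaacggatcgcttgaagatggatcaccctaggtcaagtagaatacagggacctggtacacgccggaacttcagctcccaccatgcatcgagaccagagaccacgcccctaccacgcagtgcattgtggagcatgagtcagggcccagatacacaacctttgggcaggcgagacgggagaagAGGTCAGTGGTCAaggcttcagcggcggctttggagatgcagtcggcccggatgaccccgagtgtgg
Hacl1: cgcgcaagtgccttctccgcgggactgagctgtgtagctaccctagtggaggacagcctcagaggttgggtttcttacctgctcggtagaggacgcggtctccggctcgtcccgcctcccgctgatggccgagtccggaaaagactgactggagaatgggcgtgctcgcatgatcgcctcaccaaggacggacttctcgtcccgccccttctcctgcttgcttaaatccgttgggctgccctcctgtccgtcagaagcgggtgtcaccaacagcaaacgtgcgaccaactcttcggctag
Pex11a: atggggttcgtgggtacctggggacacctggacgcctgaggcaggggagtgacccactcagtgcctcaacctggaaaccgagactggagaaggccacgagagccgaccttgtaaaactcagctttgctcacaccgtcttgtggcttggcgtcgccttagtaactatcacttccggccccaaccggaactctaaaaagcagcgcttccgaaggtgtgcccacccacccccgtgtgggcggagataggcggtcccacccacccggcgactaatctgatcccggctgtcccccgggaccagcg
Their GC content was 55.7%, 61.3% and 62%, where the median was 58.3% over member windows and 51.7% over all windows.

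Other genes of the same pathways were read from the same fit, with the chow averaged over both fluids, where 6.49% of all TranscriptClusterIDs were called higher and 6.77% lower. Of 19 further genes listed for mitochondrial fatty acid and branched-chain oxidation, not all of whose proteins lie in mitochondria, 4 rose (Mlycd, Slc22a5, Ivd and Pccb) and 1 fell. That was Acsf2, an acyl-CoA synthetase, which fell by 0.50 on the log2 scale (adjusted p = 0.00226), while Slc22a5, the carnitine transporter of the plasma membrane, rose by 0.26. Of 15 further peroxisomal genes, Acaa1b and Pecr (an enoyl-CoA reductase) rose, and Phyh, which starts alpha-oxidation upstream of Hacl1, and Cat (catalase) fell, by 0.26 and 0.18 on the log2 scale. Phyh and Hacl1, steps of the same pathway, therefore moved in opposite directions. Of 12 peroxins, the proteins that build peroxisomes, Pex16 alone rose, by 0.24 (adjusted p = 0.0305).

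In the same averaged chow comparison, 6.49% of all TranscriptClusterIDs were called higher and 6.77% lower. Of 22 other PPAR-alpha targets, none rose and 1 fell, Ucp2 (a mitochondrial carrier protein), by 0.49 on the log2 scale (adjusted p = 0.00226). Of 15 receptors and coregulators, 4 fell and none rose. The brighter of 2 rows of Ppard, the sister receptor PPAR-delta, fell by 1.13 on the log2 scale (adjusted p = 0.000683), and the other row differed by -0.16 ± 0.12 and did not pass (adjusted p = 0.414). Ppargc1a (the coactivator PGC-1alpha) fell by 0.37, Ncor1 (a corepressor) by 0.36 and Ncoa1 (a coactivator) by 0.24.

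For fructose averaged over both chows, none of these lists held a call. The genes with the smallest p were Acsf2 (-0.30 ± 0.09) and Acsm5 (0.55 ± 0.18), a medium-chain acyl-CoA synthetase, of the mitochondrial list, and Acaa1b (0.45 ± 0.14) and Slc27a2 (0.11 ± 0.06), a very long chain acyl-CoA synthetase, of the peroxisomal list. They were Pex19 (0.16 ± 0.07) and Pex14 (0.15 ± 0.11) of the peroxins, Creb3l3 (0.37 ± 0.11) and Pnpla2 (0.19 ± 0.06) of the other targets, and Rxra (-0.15 ± 0.07) and Med1 (0.09 ± 0.07) of the receptors and coregulators. In FHS against CNS, where 4.31% of all TranscriptClusterIDs were called higher and 4.09% lower, genes of these lists passed in both directions. Creb3l3, a transcription factor that works with PPAR-alpha in liver, rose by 0.59 ± 0.16 (adjusted p = 0.0328). Acaa1b rose by 1.06 ± 0.20 (adjusted p = 0.00623), and Slc22a5, Pccb and Pex16 by 0.43, 0.33 and 0.33. Acsf2 (-0.79), the brighter row of Ppard (-1.23), Ucp2 (-0.49) and Ncor1 (-0.39) fell. The other row of Ppard differed by -0.12 and did not pass.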

How the data were processed

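The deposited values are log2 RMA values per TranscriptClusterID, which the authors made from Affymetrix Rat Gene arrays in Affymetrix Expression Console with background correction, normalisation between arrays and median polish, so a gene's level is relative to the other genes of its array. All 16 columns were mapped to rats by title, and 0 columns were left unmapped. Symbols came from the platform annotation. Of 36685 TranscriptClusterIDs, 18511 carried 1 symbol, 575 several and 17599 none.

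A mean was fitted for each group in limma 3.58.1 (R 4.3.3) over all 16 arrays with no covariate, with empirical Bayes moderation (15.4 degrees of freedom) and Benjamini-Hochberg adjustment over all TranscriptClusterIDs, and an adjusted p under 0.05 was a call. Errors are SE of a difference unless SD is named, and the number of rats (4 a group) limits the precision. The p-values test a difference of group means against the moderated spread between rats, each rat being taken as independent. The fit was tested on simulated data, where it recovered 88 of 100 rows changed by 1 and 62 of 100 changed by 0.5 on the log2 scale for the averaged chow comparison over 36685 rows, with 8 false calls. The simulated rows were independent of each other, and far fewer were changed than the 4863 called in the data, so recovery in the data may differ. Recovery was not counted for the fructose comparisons. DR1 was searched with Python 3.11.15.

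The members and gene lists were chosen with earlier results of these data known. Each rat's value is given for Ppara, the 5 peroxisomal members and the members with the 3 smallest p in each fructose comparison and in the averaged chow comparison, and of each further list the 2 genes with the smallest p for averaged fructose and the 1 for averaged chow are named. Genes named beyond this rule were chosen after their values were seen. Alternatives were a filter on dim rows, quantile normalisation, centring, an intensity trend, the 8 arrays of a comparison alone, the one-way ANOVA of the methods, leaving out each rat, and other compartments, summaries and mismatch limits.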

Additional observations from a re-analysis of the deposited data

Results flagged for a closer look

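The 4 values of each group were examined for a rat that stands apart (Dixon's ratio of the gap to the range, past its 95% critical value) in the 13 members whose rats are all given and in both compartment means, 60 groups in all, of which chance flags about 1 in 20. It found 3. In CNS, rat 2 had an Acot2 value of 8.48 beside 8.88 to 8.94 in the other CNS rats. The same rat had a Cd36 value of 5.03 beside 3.22 to 3.42. In FHS, rat 14 had a Ppara value of 9.19 beside 9.78 to 9.89. No interaction of fructose and chow passed the threshold among the 35 members.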

How the results depend on the processing

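No setting reversed the sign of a named member's difference. Of their 616 alternative values, 525 kept their side of the threshold, 90 lost a call and 1 gained one (Hacl1 for fructose on the 4% NaCl chow, the 1 member called there with dim rows left out). The named fructose and interaction differences had no call in the main fit and so could not lose one. All 90 losses therefore fall on the chow comparisons and on both changes together. For the chow in rats on water, where 1 member was called, the count was 4 without dim rows, 3 after quantile normalisation, 2 with an intensity trend, and 0 with arrays centred, with the 8 arrays alone and with the ANOVA of the methods after adjustment. Over all TranscriptClusterIDs, 484 were called higher in the main fit, 631 without dim rows, 580 after quantile normalisation and 611 with an intensity trend. For the chow in rats on fructose (2 called) the member counts were 4 without dim rows, 1 with arrays centred, and 0 with the 8 arrays alone and with the ANOVA. Over all TranscriptClusterIDs, 1002 were called higher in the main fit, 847 without dim rows and 639 with arrays centred. For both changes together (8 called) the member counts were 9 without dim rows, after quantile normalisation and with an intensity trend (Ehhadh added), 4 with arrays centred, 2 with the 8 arrays alone and 1 with the ANOVA. Over all TranscriptClusterIDs, 1580 were called higher in the main fit. That number was 1297 without dim rows, 1445 after quantile normalisation, 1650 with an intensity trend, 954 with arrays centred and 724 with the 8 arrays alone. The ANOVA called 596 in either direction. For fructose, the ANOVA gave 3 members on standard chow and 4 on the 4% NaCl chow at an unadjusted p under 0.05. The same ANOVA gave 1887 and 2828 of all 36685 TranscriptClusterIDs on these chows at that unadjusted p. After adjustment it gave 0 on either chow, among the members and among all TranscriptClusterIDs. Fewer rows tested or fewer samples are part of the construction of the filter and of the 8-array fits, and for the others the cause was not tested. Leaving out each rat gave 0 to 3, 1 to 3 and 3 to 11 calls in these comparisons, and 4 to 8 for the averaged chow (7 called, and 5 with arrays centred), lowest without rat 5 and highest without rat 14. In the averaged chow comparison Acadvl, Ech1, Acaa1a and Pex11a were called with each of the 16 rats left out, Ppara was lost without rat 3 or rat 5, Hacl1 without rat 1, rat 5 or rat 8, and Eci1 in 12 of 16. Over all TranscriptClusterIDs, the calls for fructose on the 4% NaCl chow were 1, and 22 without dim rows, 3 with an intensity trend and 0 to 4 with a rat left out. The averaged fructose count of 1 went to 0 with arrays centred and ranged from 0 to 4 with a rat left out. The chow counts of 1208 on water, 1968 on fructose and 3080 for both changes fell to 533, 733 and 1318 with the 8 arrays alone, and to 562, 868 and 1707 at the lowest with a rat left out.

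The mitochondrial median for fructose on the 4% NaCl chow (0.09) ranged from -0.012 without rat 15 to 0.11, and the peroxisomal median (0.28) from 0.15 without rat 15 to 0.36. The peroxisomal median for the chow in rats on fructose (0.42) ranged from 0.31 to 0.49. With Crat, Eci2 and Ech1 as peroxisomal, the peroxisomal medians were 0.13 for fructose on the 4% NaCl chow, 0.13 for averaged fructose and 0.29 for the chow in rats on fructose. DR1 was matched in 2 member windows with 1 mismatch and 10 with 3. Each member had a single row, so no other row of a symbol could be tried. No paired analysis was possible because no rat number is shared between groups. The dim rows of Cd36, Fabp1 and Angptl4 limit what can be said of them.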
